A study of Mus musculus with 48 samples.

Results

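TRBV15 and TRBV16 are neighbouring variable (V) segments of the mouse T cell receptor β (TCRβ) chain, named Vβ12 and Vβ11 in the older nomenclature. All clones assigned to either segment in the 48 TCRβ repertoire libraries were taken as members. TRBV15 accounted for 26347 and TRBV16 for 53312 of the 744876 distinct clones in the files. In 959731 clone entries over the 48 libraries, the 2 segments made up 33780 and 70136 entries. A clone was a combination of V segment, J segment and nucleotide sequence of the complementarity-determining region 3 (CDR3), the part of the chain encoded where V, D and J segments are joined.

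The mice were females of 8 weeks, of the strain C57BL/6 in the labels and C57BL/6J in the study's methods, that carried Lewis lung carcinoma (LLC) tumors on both sides of the back, and 4 of them, numbered 5 to 8, were sequenced on day 13. T cells of both subsets, CD4+ and CD8+, were sorted from left and right tumors, each cut into 2 fragments, and their CD44hi cells from the left and right tumor-draining lymph nodes (dLNs). All sorted cells were TCRβ+, unlabelled by intravenous anti-CD45.2 and negative for CD11b, B220 and NK1.1, besides Ter119 in tumors and Ly6G in dLNs, so that this gate also differed between the tissues. The cells of dLNs were gated on CD44hi and those of tumors were not, so tissue and gate cannot be told apart in comparisons of tumor with dLN. No group was without tumor or treated. The repertoires of a mouse were summed over sides and fragments for each of the 4 groups (n = 4 mice per group), and left and right repertoires were kept apart where stated.

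As background, a superantigen of an endogenous mouse mammary tumor provirus binds major histocompatibility complex class II molecules and TCRs that carry particular Vβ segments, whatever their CDR3. Vβ11, Vβ12 and Vβ5 T cells are deleted in the thymus of strains that express the class II molecule I-E together with such a provirus. C57BL/6 mice do not express I-E, and T cells with these segments mature in them. CD4 binds class II and CD8 binds class I molecules, and many V segments are found at unlike shares in the 2 subsets.

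In the GENCODE annotation of GRCm38, TRBV15 (ENSMUSG00000076472) lies on the forward strand of chromosome 6 at chr6:41141188-41141658 and TRBV16 (ENSMUSG00000076473) at chr6:41151740-41152230, with 10081 bases between them. Each has 2 exons, and the second exons are both 298 bases long and share 215 of 298 bases (72.1%) without gaps. The germline bases from the conserved cysteine codon to the end of the segment, from which the 5′ end of the CDR3 derives, are shown because they tell the segments apart.
TRBV15: TGTGCCAGCAGTTTAGC
TRBV16: TGTGCAAGCAGCTTAGA
Of the TRBV16 clones, 98.0% began with the first 9 of the TRBV16 bases, against 0.0112% of the clones of other V segments. Of the TRBV15 clones, 96.8% began with the first 9 of the TRBV15 bases, which are common to many V segments (69.2% of the clones of other V segments) and were found in 0.0615% of the TRBV16 clones. Over the first 12 bases, 68.2% of the TRBV15 and 20.4% of the other clones held the TRBV15 start, against 90.3% of the TRBV16 clones for the TRBV16 start. The start of the CDR3 thus set TRBV16 apart, and TRBV15 only in part, and V was assigned by the authors from these same reads. The files hold TCRβ only, and markers of CD4+ and CD8+ T cells could not be examined in them.

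Every library was drawn at random to 6 reads per sorted cell, which gave 131070 to 2035380 reads per library, and 25069 TRBV15 and 50425 TRBV16 clones were left. A read share from the draw and the share summed from the deposited fractions differed by at most 0.0993 percentage points for either segment in any library. The left CD8+ dLN of mouse 5 and the right CD8+ dLN of mouse 8 stood apart, since they had 22 clones at 0.02% or more in common, against at most 3 for the other pairs of CD8+ dLNs from different mice (24 pairs in all). The 22 clones included 3 TRBV15 clones, at 0.221% and 0.582% of the reads in the respective dLNs, and 2 TRBV16 clones, at 0.0867% and 0.213%. Whether these clones passed from one library to the other was not tested. Results on CD8+ dLNs are therefore given also without these clones where they bear on a value. Reads were not counted by molecular identifiers, so that intervals on single repertoires cover counting error of the estimated cells only.

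By the share of distinct clones, TRBV15 stayed between 3.09% and 4.37% in all left and right repertoires, and TRBV16 was higher in CD8+ than in CD4+ T cells. For TRBV16, clone shares in CD4+ dLNs were between 5.65% and 5.88% over the 8 left and right repertoires (median 5.80%), and in CD8+ dLNs between 8.12% and 8.61% (median 8.22%). The groups did not overlap. In tumors, the TRBV16 clone share was between 5.06% and 6.63% in CD4+ T cells (median 5.59%) and between 7.39% and 7.88% in CD8+ T cells (median 7.64%), again without overlap. TRBV16 ranked 2nd or 3rd of the V segments by clones in every CD8+ dLN, 4th or 5th in CD8+ tumors, and between 5th and 9th in CD4+ T cells.

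For TRBV15, clone shares were between 3.35% and 3.99% in CD4+ dLNs (median 3.81%), 3.57% and 3.77% in CD8+ dLNs (median 3.65%), 3.30% and 4.37% in CD4+ tumors (median 3.90%), and 3.09% and 3.53% in CD8+ tumors (median 3.27%). The CD4+ and CD8+ groups overlapped in both tissues. In all repertoires TRBV15 was between the 11th and the 15th V segment by clones.

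**Figure D1:**
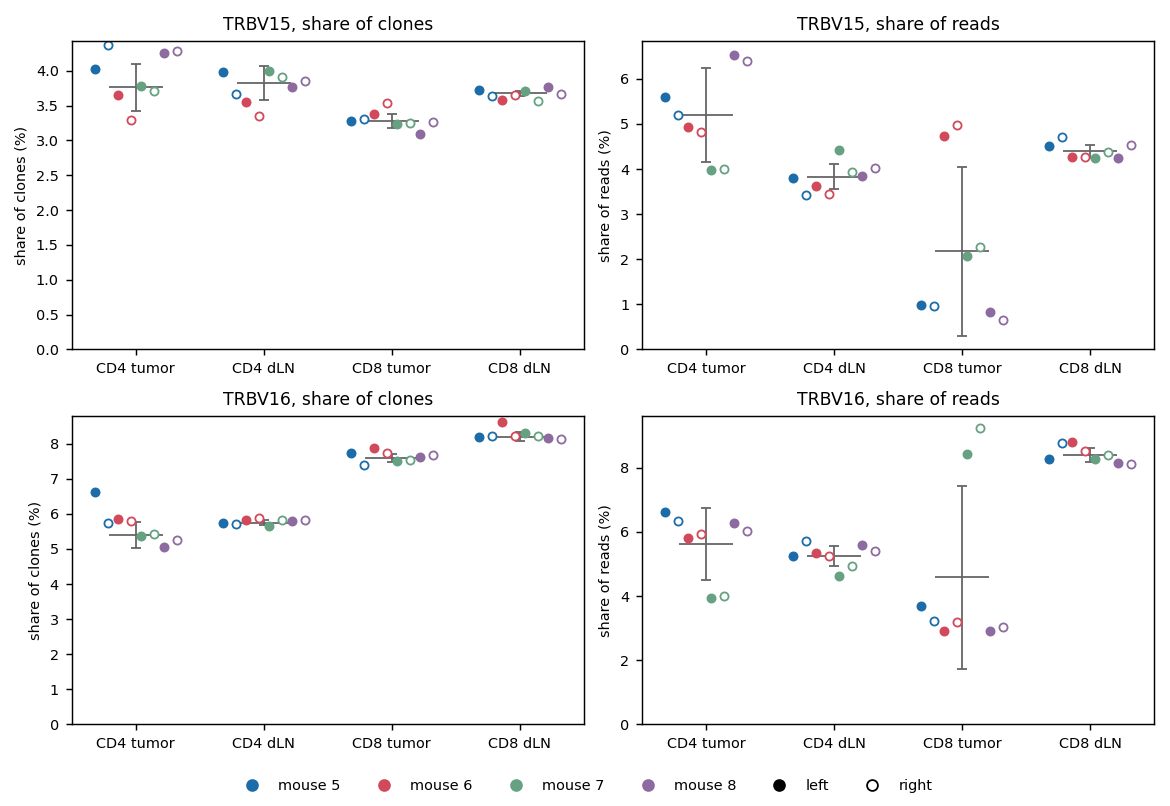
Share of distinct clones (left panels) and share of reads (right panels) of TRBV15 and TRBV16, in percent of each repertoire, for the 4 groups. Points are left (filled) and right (open) repertoires of mice 5 to 8, and bars are the mean ± SD of 4 mice. The TRBV16 clone shares of CD8+ T cells lie above those of CD4+ T cells, and read shares of CD8+ tumors are spread most widely, from 0.641% to 4.97% for TRBV15 and from 2.90% to 9.24% for TRBV16.

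The clone shares were tested over 22 V segments with edgeR's quasi-likelihood test on the numbers of clones per mouse, and p-values were adjusted over the segments with the Benjamini-Hochberg method. In dLNs, 21 of 22 V segments differed between CD4+ and CD8+ T cells (95.5%). TRBV16 was among them, with a mean of 5.75% ± 0.0649 in CD4+ and 8.20% ± 0.127 in CD8+ T cells (SD, n = 4) and a log2 ratio of -0.51 ± 0.03 (SE, adjusted p = 7.76e-11). TRBV15 was not called, with 3.82% ± 0.238 in CD4+ and 3.68% ± 0.0368 in CD8+ T cells (SD, n = 4) and a log2 ratio of 0.05 ± 0.04 (SE, adjusted p = 0.218). Its direction depended on the scaling. TRBV15 was called lower in CD4+ T cells with TMM factors (-0.13, edgeR adjusted p = 0.00943) and with DESeq2's size factors (-0.24, adjusted p = 4.85e-08), which lowered the median ratio of all 22 segments by 0.18 and 0.29, and it was called higher without mouse 6 (0.09, edgeR adjusted p = 0.0163).

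In tumors, 19 of 22 V segments differed between CD4+ and CD8+ T cells by clones (86.4%), both segments among them. TRBV16 was at 5.40% ± 0.382 in CD4+ and 7.58% ± 0.118 in CD8+ tumors (SD, n = 4), a log2 ratio of -0.50 ± 0.05 (SE, adjusted p = 1.68e-16), and TRBV16 was lower in CD4+ T cells in both tissues under every alternative tried. TRBV15 was at 3.76% ± 0.337 in CD4+ and 3.27% ± 0.0997 in CD8+ tumors (SD, n = 4), a log2 ratio of 0.19 ± 0.06 (SE, adjusted p = 0.000972) that was 0.01 with TMM factors (adjusted p = 0.911) and 0.14 without mouse 8 (adjusted p = 0.0527). TMM lowered the median ratio of all 22 segments by 0.19 in this comparison, from 0.21 to 0.02. The difference of the CD4+ to CD8+ ratio between tumors and dLNs passed the test for 16 of 22 V segments (72.7%) and for neither TRBV15 (0.14 ± 0.07, adjusted p = 0.0601) nor TRBV16 (0.01 ± 0.06, adjusted p = 0.835). For TRBV15 it was 0.17 without mouse 6 (adjusted p = 0.0209).

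Between tissues, the clone shares of CD8+ T cells differed for 20 of 22 V segments (90.9%). Both were lower in tumors, TRBV15 with a log2 ratio of tumor to dLN of -0.17 ± 0.03 (SE, adjusted p = 1.73e-05) and TRBV16 with -0.11 ± 0.02 (SE, adjusted p = 0.000141). The call was lost for TRBV15 at equal depth (-0.06, adjusted p = 0.067) and for TRBV16 with DESeq2 (-0.04, adjusted p = 0.302). In CD4+ T cells, 15 of 22 V segments differed between tumor and dLN (68.2%), and neither TRBV15 (-0.03 ± 0.07, adjusted p = 0.705) nor TRBV16 (-0.10 ± 0.06, adjusted p = 0.122) was among them. Both directions turned with TMM, to 0.08 and 0.01, and with DESeq2 TRBV15 was called higher in tumors (0.16, adjusted p = 0.0353). The TRBV16 ratio was -0.14 without mouse 5 (adjusted p = 0.0151).

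By the share of reads, which follows the number and RNA content of the cells of each clone, the 2 segments were even between mice in dLNs and uneven in CD8+ tumors. In a bulk library, fewer cells of a clone and less RNA per cell cannot be told apart. In CD8+ dLNs, TRBV15 held between 4.25% and 4.70% of the reads (median 4.32%) and TRBV16 between 8.12% and 8.79% (median 8.32%). In CD4+ dLNs, the ranges were 3.42% to 4.42% (median 3.83%) for TRBV15 and 4.61% to 5.70% (median 5.30%) for TRBV16. Thus TRBV16 did not overlap between CD4+ and CD8+ dLNs, and TRBV15 did.

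In CD8+ tumors, TRBV15 held 0.994% (left) and 0.957% (right) of the reads in mouse 5, 4.74% and 4.97% in mouse 6, 2.08% and 2.27% in mouse 7, and 0.833% and 0.641% in mouse 8. Mouse 6 was thus above the other mice on both sides. The 95% Wilson intervals did not exceed ± 0.0803 percentage points and cover counting error only. TRBV16 held 3.69% and 3.21% in mouse 5, 2.92% and 3.204% in mouse 6, 8.42% and 9.24% in mouse 7, and 2.90% and 3.04% in mouse 8. For this segment mouse 7 was the high one on both sides, and the other mice lay close together.

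In CD4+ tumors, TRBV15 held 5.59% (left) and 5.19% (right) of the reads in mouse 5, 4.94% and 4.83% in mouse 6, 3.98% and 4.00% in mouse 7, and 6.53% and 6.41% in mouse 8. TRBV16 held 6.62% and 6.35% in mouse 5, 5.80% and 5.92% in mouse 6, 3.93% and 4.01% in mouse 7, and 6.28% and 6.01% in mouse 8. Mouse 7 was lowest for both segments in CD4+ tumors.

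In dLNs, 20 of 22 V segments differed in reads between CD4+ and CD8+ T cells (90.9%), both segments among them. TRBV16 reads were lower in CD4+ T cells with a log2 ratio of -0.68 ± 0.06 (SE, edgeR adjusted p = 1.38e-06). TRBV15 reads were also lower, with -0.20 ± 0.06 (SE, adjusted p = 0.0106), which was -0.18 without the 22 clones common to the pair of dLNs (adjusted p = 0.0147) and -0.16 without mouse 5 (adjusted p = 0.0836). In tumors, 3 of 22 V segments differed in reads (13.6%), and neither segment was among them. The log2 ratio of CD4+ to CD8+ tumors was 1.25 ± 0.58 for TRBV15 (SE, adjusted p = 0.121) and 0.30 ± 0.43 for TRBV16 (SE, adjusted p = 0.626). Single mice bore on both, since the ratio was 2.03 for TRBV15 without mouse 6 (adjusted p = 0.0299) and 0.96 for TRBV16 without mouse 7 (adjusted p = 0.0146).

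Between CD8+ tumors and dLNs, 10 of 22 V segments differed in reads (45.5%), and neither of these was called. TRBV15 was at 2.18% ± 1.88 in tumors and 4.40% ± 0.143 in dLNs (SD, n = 4), a log2 ratio of -1.01 ± 0.55 (SE, adjusted p = 0.154), and TRBV16 at 4.58% ± 2.84 and 8.40% ± 0.221 (SD, n = 4), a ratio of -0.88 ± 0.40 (SE, adjusted p = 0.112). Without mouse 6 the TRBV15 ratio was -1.78 (adjusted p = 0.0308), and without mouse 7 the TRBV16 ratio was -1.41 (adjusted p = 0.00111). The ratios were nearer 0 with TMM (-0.17 and -0.23, adjusted p = 0.882 and 0.668) and DESeq2 (-0.04 and -0.16, adjusted p = 0.96 and 0.783), which raised the median ratio of all 22 segments by 0.59 and 0.67, and with abundant clones left out (-0.19 and -0.11, adjusted p = 0.122 and 0.0856).

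Between CD4+ tumors and dLNs, 8 of 22 V segments differed in reads (36.4%). TRBV15 passed narrowly, with 5.20% ± 1.04 in tumors and 3.83% ± 0.277 in dLNs (SD, n = 4) and a ratio of 0.44 ± 0.15 (SE, adjusted p = 0.0489). The call did not hold with the mouse as a replicate block (0.42, adjusted p = 0.0871), nor without mouse 5, 6 or 8 (0.40, 0.43 and 0.33, with adjusted p of 0.221, 0.201 and 0.148). TRBV16 gave 0.10 ± 0.16 (SE, adjusted p = 0.747). The difference of the CD4+ to CD8+ ratio between tissues was called for 7 of 22 V segments by reads (31.8%) and was 1.45 ± 0.60 for TRBV15 (SE, adjusted p = 0.0699) and 0.97 ± 0.43 for TRBV16 (SE, adjusted p = 0.0818). Without mouse 6 it was 2.21 for TRBV15 (adjusted p = 0.00701), and without mouse 7 it was 1.60 for TRBV16 (adjusted p = 2.01e-05).

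The spread of the read shares in CD8+ tumors went in part with a small number of large clones, and the smaller clones differed between mice too. A clone was called abundant at 0.1% or more of the reads of a mouse in a group. In CD8+ tumors, 5 TRBV15 clones and 16 TRBV16 clones were abundant among 295 abundant clones of all V segments (1.69% and 5.42%), while the segments made up a mean of 3.27% and 7.58% of all clones there. In CD4+ tumors, 37 TRBV15 and 31 TRBV16 clones were abundant among 587 (6.30% and 5.28%), beside 3.76% and 5.40% of all clones. Abundant clones were few in dLNs, with 4 TRBV15 and 8 TRBV16 clones of 217 in CD4+ T cells (1.84% and 3.69%, beside 3.82% and 5.75% of all clones) and 1 and 0 of 18 in CD8+ T cells. The 1 abundant TRBV15 clone of the CD8+ dLNs belonged to the 22 clones common to the pair of dLNs. These counts are descriptions without a test.

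The mice differed in where the abundant clones fell. In CD8+ tumors, 3 abundant TRBV15 clones of mouse 6 held 3.88% of its reads, which was 80.4% of the TRBV15 reads, and mouse 8 had none. Below 0.1%, the TRBV15 clones of CD8+ tumors held 0.843%, 0.948%, 1.63% and 0.731% of the reads in mice 5, 6, 7 and 8. For TRBV16, 7 abundant clones held 5.56% of the reads of CD8+ tumors in mouse 7, against 1.25% to 1.63% in the other mice, and the smaller TRBV16 clones held 1.86%, 1.61%, 3.26% and 1.73%. In CD4+ tumors, TRBV15 had between 6 and 13 abundant clones per mouse, none above 1%, which held 1.52% to 3.03% of the reads. TRBV16 had between 2 and 12 there, with 2 in mouse 7.

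With abundant clones left out of reads and totals, the log2 ratio of CD4+ to CD8+ tumors was 0.32 for TRBV15 (adjusted p = 0.0275) and -0.22 for TRBV16 (adjusted p = 0.103), the latter opposite in direction to the ratio of all reads. Clones are left out here by their own reads, and those left out held a mean of 39.6% of all reads in CD4+ tumors and 73.0% in CD8+ tumors, so these values are descriptions.

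**Figure D2:**
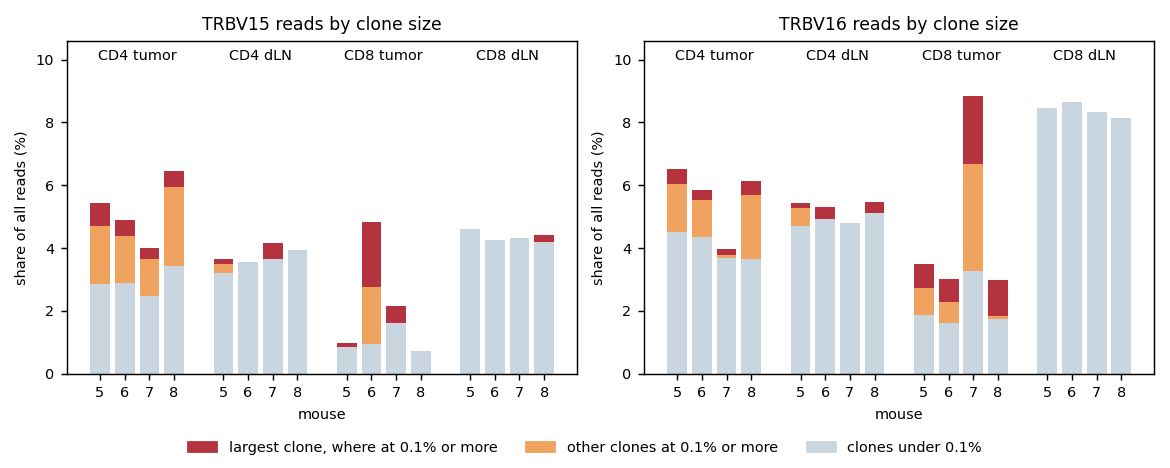
Share of all reads held by TRBV15 (left) and TRBV16 (right) in each mouse and group, in percent, divided into the largest clone where it reached 0.1%, other clones at 0.1% or more, and clones under 0.1%. The tall bars of CD8+ tumors, TRBV15 in mouse 6 and TRBV16 in mouse 7, hold 3.88% and 5.56% of reads in clones at 0.1% or more.

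Reads per clone were also compared over all clones of a segment, abundant ones included. The median TRBV15 clone had more reads than the median clone of the other V segments in 16 of 16 mouse-level repertoires, for example 10 to 11 reads against 8 in CD8+ dLNs and 22 to 30 reads against 15 to 21 in CD4+ tumors. The ratio of read share to clone share of TRBV15 was 1.20 ± 0.0314 in CD8+ dLNs and 1.00 ± 0.0442 in CD4+ dLNs (SD, n = 4). For TRBV16, the median clone had more reads than that of the other segments in 10 and fewer in 2 of 16 repertoires, and the ratio was 1.02 ± 0.0131 in CD8+ dLNs and 0.912 ± 0.0547 in CD4+ dLNs (SD, n = 4). In CD8+ tumors, the ratio of TRBV15 was 0.297, 1.42, 0.672 and 0.231 in mice 5, 6, 7 and 8, and that of TRBV16 was 0.462, 0.392, 1.18 and 0.392. Mouse 6 for TRBV15 and mouse 7 for TRBV16 were the ones above 1, and the other mice were below it. In these repertoires of mouse 6 and mouse 7, abundant clones held 80.4% and 63.0% of the segment's reads.

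The largest clones of the 2 segments are shown by their CDR3 from the deposited files, to identify the clones at the top of the plot of reads by clone size. Bases in capitals lie between the last base assigned to V and the first base assigned to J. Whether they hold all bases of the D segment and all added bases was not checked.
TRBV15 with TRBJ2-7, CD8+ tumors of mouse 6: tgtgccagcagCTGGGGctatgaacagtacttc
TRBV15 with TRBJ1-6, CD8+ tumors of mouse 6: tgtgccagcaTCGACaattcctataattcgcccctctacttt
TRBV15 with TRBJ2-7, CD8+ tumors of mouse 7: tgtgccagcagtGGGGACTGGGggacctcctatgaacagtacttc
TRBV16 with TRBJ2-7, first clone of CD8+ tumors of mouse 7: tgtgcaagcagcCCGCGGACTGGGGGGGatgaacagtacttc
TRBV16 with TRBJ2-7, second clone of CD8+ tumors of mouse 7: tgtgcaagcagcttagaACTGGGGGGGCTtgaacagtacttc
TRBV16 with TRBJ2-1, CD8+ tumors of mouse 8: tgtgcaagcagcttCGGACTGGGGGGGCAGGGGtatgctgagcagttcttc
These 6 were the 3 largest CD8+ tumor clones of each segment. They were chosen by their tumor reads, so that lower shares in dLNs are a description. The TRBV15 clone with TRBJ2-7 of mouse 6 was at 2.11% of the reads in the left tumor (95% Wilson interval 2.06% to 2.15%) and 2.002% in the right tumor (1.95% to 2.05%), and at 0.00903% and 0.0152% in the left and right dLN. The clone with TRBJ1-6 of the same mouse was at 1.38% and 1.20% in the tumors and at 0.0105% and 0.00489% in the dLNs. Together these 2 clones made up 42.8% and 27.1% of the TRBV15 reads of that mouse. The TRBV15 clone of mouse 7 was at 0.502% and 0.585% in the tumors and at 0.0107% in the left dLN, and had no read in the right dLN, where 3 reads would be 0.000561%.

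Of the TRBV16 clones of mouse 7, the first was at 1.78% in the left tumor (1.74% to 1.82%) and 2.50% in the right tumor (2.46% to 2.55%) and had no read in the left or right dLN, where 3 reads would be 0.000825% and 0.000561%. The second was at 1.92% and 2.03% in the tumors, had no read in the left dLN and was at 0.0202% in the right dLN. The TRBV16 clone of mouse 8 was at 0.924% and 1.32% in the tumors and at 0.0307% and 0.0199% in the dLNs. All 6 clones were thus found in the tumors of both sides, some with intervals that did not overlap between the sides, and were at most at 0.0307% or without reads among CD44hi cells of the dLNs.

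In CD4+ T cells, the 3 largest tumor clones of each segment were chosen in the same way.
TRBV15 with TRBJ2-7, CD4+ tumors of mouse 5: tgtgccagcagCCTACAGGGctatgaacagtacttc
TRBV15 with TRBJ1-1, CD4+ tumors of mouse 8: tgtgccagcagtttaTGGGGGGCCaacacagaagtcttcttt
TRBV15 with TRBJ2-4, CD4+ tumors of mouse 5: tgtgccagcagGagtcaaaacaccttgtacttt
TRBV16 with TRBJ2-4, CD4+ tumors of mouse 5: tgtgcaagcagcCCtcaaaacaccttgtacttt
TRBV16 with TRBJ1-1, CD4+ tumors of mouse 8: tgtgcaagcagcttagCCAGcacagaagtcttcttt
TRBV16 with TRBJ1-1, CD4+ tumors of mouse 5: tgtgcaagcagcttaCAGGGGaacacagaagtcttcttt
The TRBV15 clone with TRBJ2-7 of mouse 5 was at 0.805% and 0.629% of the reads in the left and right tumor and at 0.0668% and 0.0136% in the dLNs. The clone with TRBJ1-1 of mouse 8 was at 0.451% and 0.557% in the tumors and at 0.0644% and 0.0305% in the dLNs. The clone with TRBJ2-4 of mouse 5 had 1 base between V and J and was at 0.529% and 0.462% in the tumors and at 0.234% and 0.0632% in the dLNs.

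The TRBV16 clone with TRBJ2-4 of mouse 5 had 2 bases between V and J and was at 0.497% and 0.502% in the tumors and 0.171% and 0.145% in the dLNs. The clone with TRBJ1-1 of mouse 8 was at 0.470% and 0.424% in the tumors and at 0.547% and 0.221% in the dLNs, so that its left dLN share was above its tumor shares. The third TRBV16 clone, of mouse 5, was at 0.445% and 0.389% in the tumors and at 0.110% and 0.0602% in the dLNs.

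**Figure D3:**
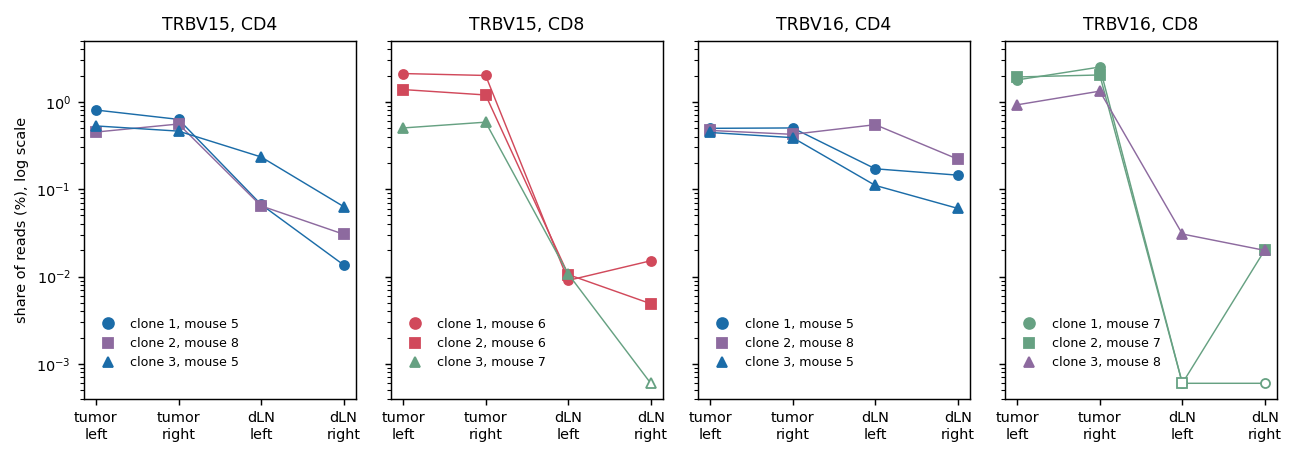
Read shares, in percent on a log scale, of the 3 largest tumor clones of TRBV15 and TRBV16 in CD4+ and CD8+ T cells, in the left and right tumor and the left and right dLN of the mouse that carried each clone. Colours mark mice and symbols mark clones, and open symbols at the bottom stand for no read. CD8+ clones are between 0.502% and 2.50% in tumors and at most 0.0307% in dLNs, and CD4+ clones are between 0.389% and 0.805% in tumors and between 0.0136% and 0.547% in dLNs.

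Among the dLN repertoires, the largest clones were as follows.
TRBV15 with TRBJ2-7, CD4+ dLNs of mouse 7: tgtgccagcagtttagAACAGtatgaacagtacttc
TRBV15 with TRBJ2-5, CD8+ dLNs of mouse 8: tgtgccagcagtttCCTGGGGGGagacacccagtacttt
TRBV16 with TRBJ2-1, CD4+ dLNs of mouse 6: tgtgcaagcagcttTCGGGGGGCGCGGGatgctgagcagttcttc
TRBV16 with TRBJ2-7, CD8+ dLNs of mouse 8: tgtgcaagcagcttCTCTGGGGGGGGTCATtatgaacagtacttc
The TRBV15 clone of the CD4+ dLNs was at 0.532% and 0.495% of the reads in the left and right dLN and at 0.108% and 0.156% in the tumors of mouse 7. The TRBV15 clone with TRBJ2-5 was at 0.368% in the right CD8+ dLN of mouse 8 and had no read in its left dLN. This clone was found in the 3 other mice, over both subsets. In their CD8+ repertoires it was at most at 0.145%, in the left dLN of mouse 5. It was the largest of the TRBV15 clones common to that pair of dLNs. The TRBV16 clone of mouse 6 was at 0.398% and 0.348% in the dLNs and at 0.304% and 0.300% in the tumors. The TRBV16 clone of the CD8+ dLNs was at 0.152% and 0.0336% in the dLNs of mouse 8.

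Left and right tumors were compared by the difference of their read shares within and between mice. For TRBV15, the left and right share of a mouse differed by 0.165 ± 0.163 percentage points in CD4+ tumors and 0.163 ± 0.0857 in CD8+ tumors (SD, n = 4 mice), against 1.32 ± 0.676 and 2.26 ± 1.49 between mice (SD, n = 12 pairs). In both subsets this was the smallest distance of 24 pairings (exact permutation test, one-sided, p = 0.0417, the smallest p that 4 mice allow). For TRBV16, the distance was 0.186 ± 0.100 within and 1.31 ± 0.965 between mice in CD4+ tumors (exact p = 0.0417), and 0.431 ± 0.295 within and 3.01 ± 2.80 between mice in CD8+ tumors (exact p = 0.0833). For TRBV16, most of the difference of within and between came from mouse 7, since it was -1.12 percentage points in CD4+ tumors and -0.20 without this mouse, and -2.58 in CD8+ tumors and -0.06 without it. For TRBV15, the difference was smaller without 1 mouse but remained, at -2.10 in CD8+ tumors and -0.82 without mouse 6 (0.140 within and 0.956 between mice), and at -1.16 in CD4+ tumors and -0.75 without mouse 8 (0.178 within and 0.932 between mice). With 3 mice the exact p cannot go below 0.167.

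All 37 abundant TRBV15 and 31 abundant TRBV16 clones of CD4+ tumors, and all 5 and 16 of CD8+ tumors, were found on both sides, as were 587 of 587 and 294 of 295 over all V segments. The shares on the 2 sides differed by a median of 1.17-fold and 1.21-fold in CD4+ tumors and 1.15-fold and 1.34-fold in CD8+ tumors for TRBV15 and TRBV16. Over all V segments these medians were 1.23-fold and 1.28-fold. In CD4+ dLNs, 3 of 4 abundant TRBV15 clones and 3 of 8 abundant TRBV16 clones differed more than 2-fold between the sides, against 45 of 217 over all V segments. Mouse 5 held 3 of these 4 TRBV15 clones, 6 of these 8 TRBV16 clones and 77 of the 217.

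The overlap of left and right repertoires, the geometric mean of the reads in shared clones on each side, was computed within each segment. In CD4+ tumors it was 86.4% ± 2.20 for TRBV15, 86.2% ± 0.954 for TRBV16 and 84.2% ± 3.16 for the other V segments (SD, n = 4). In CD8+ tumors, TRBV15 overlapped by 35.1%, 87.9%, 52.5% and 30.6% in mice 5, 6, 7 and 8, TRBV16 by 64.9%, 63.1%, 76.1% and 64.9%, and the other V segments by 85.7%, 86.3%, 73.0% and 87.9%. Mouse 6 for TRBV15 and mouse 7 for TRBV16, the mice with the largest clones, had the highest overlap within the segment. By clones, means of 14.4% (TRBV15), 14.7% (TRBV16) and 13.3% (other V segments) of the left CD8+ tumor clones were found on the right. In CD8+ dLNs, the overlap was 7.31% ± 0.983 for TRBV15, 10.8% ± 1.37 for TRBV16 and 9.51% ± 0.850 for the other V segments (SD, n = 4), and in CD4+ dLNs 36.2% ± 3.45, 44.3% ± 4.48 and 48.4% ± 2.003.

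Of the CD8+ tumor reads, clones also found in the CD8+ dLNs of the same mouse held 24.8%, 83.5%, 37.9% and 19.0% for TRBV15 in mice 5, 6, 7 and 8, 34.3%, 58.2%, 34.3% and 56.2% for TRBV16, and 81.7%, 78.5%, 54.4% and 79.2% for the other V segments. TRBV15 was thus above the other V segments in mouse 6 and below them in the other mice, and TRBV16 was below them in each mouse. In CD4+ T cells, the shares of tumor reads were 65.7% ± 7.87 for TRBV15, 69.5% ± 2.05 for TRBV16 and 71.0% ± 3.17 for the other V segments (SD, n = 4). The mean shares of tumor clones there were 23.6%, 25.0% and 20.7%. These overlaps are descriptions, and the differences between segments were not tested.

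J partners were examined by counting each clone once. The J segments lie in a first and a second cluster, each behind its own D segment, and TRBJ2-7 is the last functional one of the second cluster. TRBV15 and TRBV16 clones held fewer J segments of the first cluster than the clones of other V segments, in particular TRBJ1-6 and TRBJ1-2, and more TRBJ2-7. Second-cluster J segments made up 69.5% ± 0.672 of the TRBV15 and 70.3% ± 1.964 of the TRBV16 clones in CD4+ tumors, against 64.5% ± 0.336 for the other V segments (SD, n = 4), and 74.7% ± 0.552, 72.3% ± 1.11 and 69.8% ± 0.370 in CD8+ tumors.

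With edgeR's test on clone numbers over 12 J segments, TRBV15 differed from the other V segments in 9 J segments in CD4+ dLNs (75.0%), 6 in CD4+ tumors (50.0%), 8 in CD8+ dLNs (66.7%) and 7 in CD8+ tumors (58.3%). TRBV16 differed in 7 (58.3%), 9 (75.0%), 8 (66.7%) and 6 (50.0%). Without mouse 7, TRBV16 differed in 3 J segments in CD8+ tumors. TRBJ1-2 and TRBJ1-6 were lower for both segments in all 4 groups, TRBJ2-7 was higher for both in all 4 groups, and TRBJ2-5 was lower for TRBV15 in all 4 groups and higher for TRBV16 in 3. The tests compare each segment with the rest of the same repertoires.

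The TRBJ1-6 deficit was the lowest called ratio in 6 of the 8 combinations of segment and group. In CD4+ dLNs, TRBJ1-6 was in 1.09% ± 0.153 of the TRBV15 clones and 3.30% ± 0.0534 of the others (SD, n = 4), a log2 ratio of -1.58 ± 0.15 (SE, adjusted p = 4.61e-09). In CD8+ dLNs, TRBJ1-6 was in 1.16% ± 0.152 of the TRBV16 clones and 3.10% ± 0.111 of the others, a ratio of -1.43 ± 0.09 (SE, adjusted p = 3.51e-07). In CD4+ tumors, the lowest ratios were those of TRBJ1-2, with -1.40 ± 0.16 for TRBV15 (SE, adjusted p = 6.29e-12) and -0.96 ± 0.12 for TRBV16 (SE, adjusted p = 1.03e-10). TRBJ1-6, the J segment of the second largest TRBV15 clone in the CD8+ tumors of mouse 6, was in 1.73% ± 0.283 of the TRBV15 clones of CD8+ tumors and 3.21% ± 0.0414 of the others (SD, n = 4).

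The J segment with the highest called ratio varied over segments and groups. In CD4+ T cells, TRBJ1-1 was in 14.6% ± 1.52 of the TRBV15 clones of dLNs against 9.53% ± 0.197 of the others (SD, n = 4), a log2 ratio of 0.61 ± 0.06 (SE, adjusted p = 2.57e-08), and it was highest for TRBV15 in CD4+ tumors (0.58 ± 0.08) and for TRBV16 in CD4+ dLNs (0.41 ± 0.06). In CD8+ tumors, TRBJ2-7 was in 27.7% ± 0.510 of the TRBV15 clones against 21.8% ± 0.263 of the others, a ratio of 0.35 ± 0.03 (SE, adjusted p = 1.80e-17). For TRBV16, the highest ratios were those of TRBJ2-3 in tumors, at 0.29 ± 0.08 in CD4+ and 0.13 ± 0.04 in CD8+ T cells (called in 8 of 9 alternatives, adjusted p = 0.128 in the weakest), and of TRBJ2-4 in CD8+ dLNs, at 0.21 ± 0.03. The highest ratio of TRBV15 in CD8+ dLNs, TRBJ1-5 with 0.33 ± 0.12 (SE, adjusted p = 0.02), was called in 7 of 9 alternatives and had an adjusted p of 0.1246 in the weakest.

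**Figure D4:**
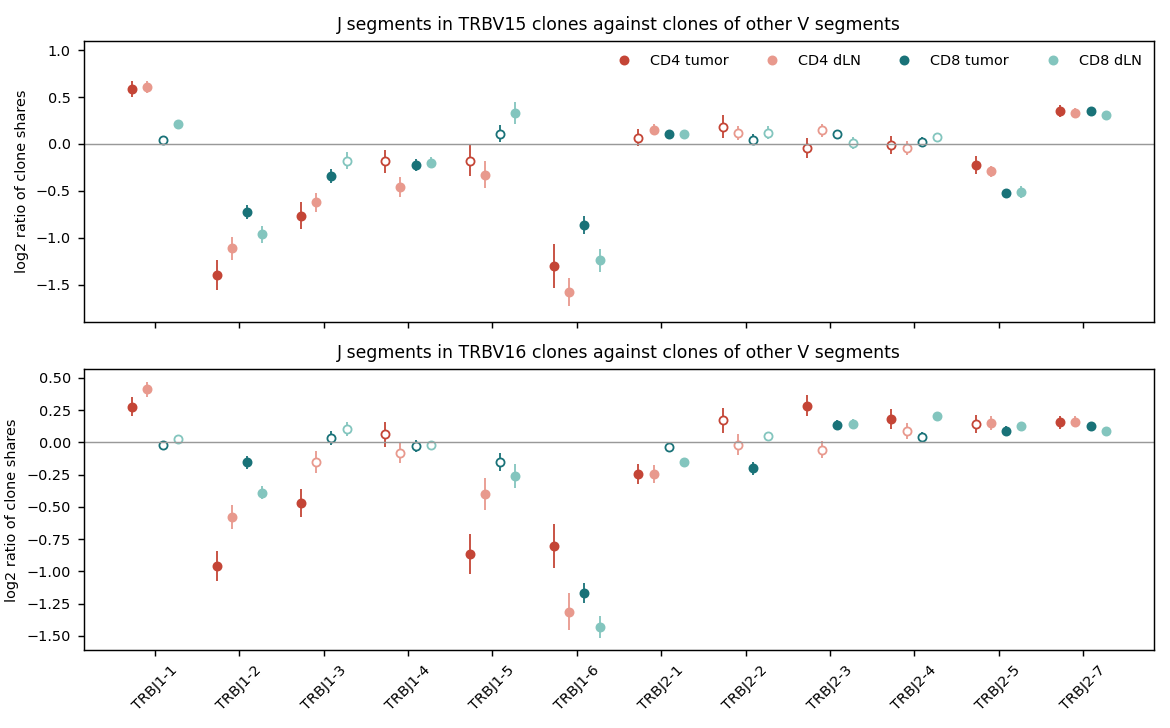
Log2 ratio of each J segment's share among TRBV15 clones (top) and TRBV16 clones (bottom) to its share among clones of all other V segments, for the 4 groups. Points are edgeR estimates over 4 mice with SE bars, filled where the adjusted p is under 0.05. TRBJ1-2 and TRBJ1-6 lie below 0 and TRBJ2-7 above 0 for both segments in all groups.

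CDR3 lengths, in residues and with each clone counted once, were shorter for TRBV15 than for the other V segments in all groups. TRBV15 clones had a mean of 13.5 ± 0.100 residues in CD4+ tumors, 13.8 ± 0.0757 in CD8+ tumors, 13.4 ± 0.0482 in CD4+ dLNs and 13.6 ± 0.0384 in CD8+ dLNs (SD, n = 4). The difference from the other V segments was -0.498 ± 0.0743, -0.258 ± 0.0643, -0.401 ± 0.0399 and -0.312 ± 0.0374 residues, in 4 of 4 mice in each group (exact permutation test over 70 unpaired splits, two-sided, p = 0.0286, the smallest possible, and 0.0327 after adjustment over 16 comparisons of length). At 13 residues were 32.8% of the TRBV15 clones of CD4+ dLNs against 22.5% of the clones of other V segments, and at 16 residues 3.03% against 7.28%.

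TRBV16 clones were longer than those of other V segments in CD8+ T cells, by 0.165 ± 0.0166 residues in tumors and 0.197 ± 0.0219 in dLNs (exact p = 0.0286 each), and shorter in CD4+ T cells of dLNs, by a difference of -0.104 ± 0.0377 residues (exact p = 0.0286). In CD4+ tumors the difference was -0.0657 ± 0.0496 (exact p = 0.0857). Weighted by reads, the difference in CD8+ tumors was 0.576 residues and was not called, and likewise for TRBV15 the differences from other V segments in CD8+ tumors (-0.340) and between CD4+ and CD8+ tumors (-0.273) lost their calls. The mean lengths of TRBV16 were 13.9 ± 0.0416 residues in CD4+ tumors, 14.2 ± 0.0218 in CD8+ tumors, 13.7 ± 0.0502 in CD4+ dLNs and 14.1 ± 0.0269 in CD8+ dLNs (SD, n = 4).

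CD4+ clones were shorter than CD8+ clones for both segments. In tumors the difference was -0.364 ± 0.0283 residues for TRBV15 and -0.350 ± 0.0271 for TRBV16, and in dLNs -0.236 ± 0.0219 and -0.429 ± 0.0690 (SD of 4 mice, exact p = 0.0286 each). Tumor clones were longer than dLN clones by 0.178 ± 0.0452 residues for TRBV15 and 0.100 ± 0.0171 for TRBV16 in CD8+ T cells (exact p = 0.0286 each), and by 0.180 ± 0.0790 for TRBV16 in CD4+ T cells (exact p = 0.0286). For TRBV15 in CD4+ T cells the difference was 0.0509 ± 0.0672 residues (exact p = 0.371). Clones of other V segments differed in the same directions, with means of 13.95 residues in CD4+ tumors, 14.08 in CD8+ tumors, 13.80 in CD4+ dLNs and 13.95 in CD8+ dLNs where TRBV15 was left out, and 13.94, 14.05, 13.79 and 13.92 where TRBV16 was. These length tests compare values of the same 4 mice without pairing, and an exact test with the mouse as a block (16 sign changes) cannot pass the threshold. When clones were weighted by reads, the differences between tumor and dLN were not called for either segment, and they turned to -0.0772 and -0.112 residues for TRBV15 and TRBV16 in CD4+ T cells and to -0.0476 for TRBV15 in CD8+ T cells.

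**Figure D5:**
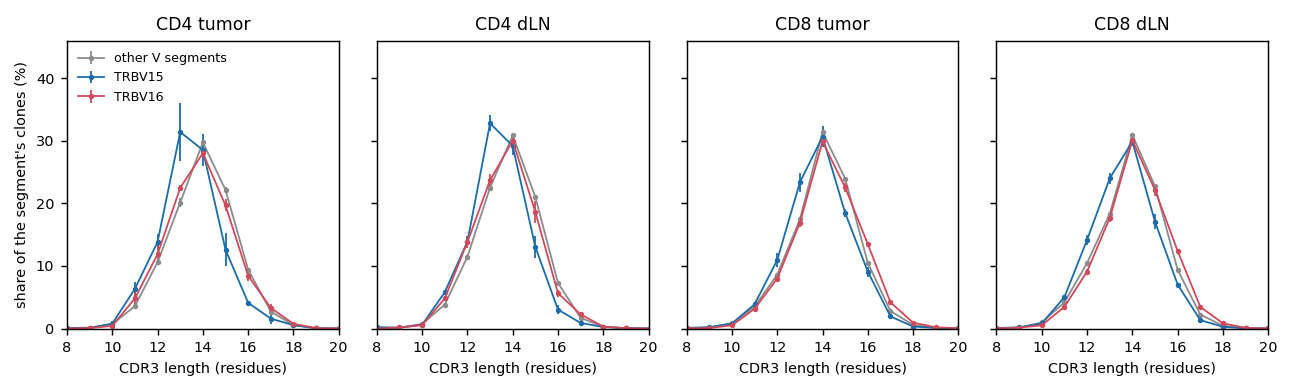
Distribution of CDR3 lengths in residues among the clones of TRBV15, TRBV16 and all other V segments, in percent of the clones, for the 4 groups. Points are means of 4 mice with SD bars. The TRBV15 curve lies to the left of the others, most clearly in CD4+ T cells, where 31.4% (tumors) and 32.8% (dLNs) of its clones have 13 residues.

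The junctions differed in the bases that came from V and in the bases between V and J. TRBV15 clones kept a mean of 13.0 V bases in CD4+ dLNs and 12.9 in CD8+ dLNs of the 17 germline bases, and TRBV16 clones 14.3 and 14.0, against 13.6 for the other V segments in both. Between V and J, TRBV15 clones had 9.11 ± 0.181 bases in CD4+ and 9.68 ± 0.0832 in CD8+ dLNs, and TRBV16 clones 8.69 ± 0.152 and 9.99 ± 0.0621 (SD, n = 4). In tumors, the numbers were 9.20 ± 0.285 and 10.0 ± 0.194 for TRBV15 and 9.07 ± 0.179 and 10.1 ± 0.163 for TRBV16. Clones of CD8+ T cells thus had more bases between V and J than those of CD4+ T cells for both segments, without overlap of mean ± SD, and the other V segments differed in the same direction, with 9.30 ± 0.0383 and 9.73 ± 0.0672 in dLNs and 9.63 ± 0.0468 and 10.1 ± 0.0521 in tumors. These differences were not tested.

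Clones shared between mice made up a smaller share of the TRBV15 than of the TRBV16 clones in each group. In CD8+ tumors, 224 of 10356 TRBV15 clones (2.16%) and 905 of 23471 TRBV16 clones (3.86%) were found in 2 or more mice, against 3.58% of the clones of all V segments. In CD8+ dLNs, the shares were 3.30%, 4.31% and 4.02%, in CD4+ tumors 1.35%, 2.001% and 1.70%, and in CD4+ dLNs 2.01%, 3.05% and 2.20%. Clones shared by all 4 mice numbered 35 and 41 for TRBV16 in CD8+ tumors and dLNs and 2 and 2 for TRBV15. The shared clones were shorter than the others for both segments, with 13.3 against 13.8 residues for TRBV15 and 13.6 against 14.3 for TRBV16 in CD8+ tumors. These counts were not tested.

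The V segments whose clone shares were most like those of TRBV16 over the 32 left and right repertoires were TRBV14 (Pearson r = 0.98 of log2 shares) and TRBV12-1 (r = 0.919). With the group means removed, r was 0.613 for TRBV14 and -0.098 for TRBV12-1, so that the likeness to TRBV12-1 lay between groups. For TRBV15, the most alike were TRBV20 (r = 0.607) and TRBV1 (r = 0.599), with 0.42 and -0.169 within groups. With the group means removed, the highest r to TRBV15 was that of TRBV12-2, at 0.655 (-0.61 without this removal), which was named after its values were seen. All segments of a repertoire share its library and add up to 1 total, and no test was made.

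TRBV12-1 and TRBV12-2, the Vβ5 segments that together with TRBV15 and TRBV16 form the list of segments deleted with I-E, are close copies of each other, and their split of reads is uncertain. In dLNs, 3 of the 4 listed segments had fewer clones in CD4+ than in CD8+ T cells and none had more (40.9% of all V segments called lower), with a median log2 ratio of -0.93 against 0.36 over all 22 V segments. In tumors, 3 had fewer and 1, TRBV15, had more (27.3% of all V segments called lower and 59.1% higher), with a median of -1.32 against 0.21. TRBV12-1 gave -1.35 ± 0.07 in dLNs and -2.15 ± 0.06 in tumors and TRBV12-2 gave -1.98 ± 0.05 and -2.72 ± 0.06 (SE), so that the ratios of TRBV16, at -0.51 and -0.50, were nearer 0 and TRBV15 lay at 0.05 and 0.19. By reads, all 4 were lower in CD4+ T cells of dLNs, where 40.9% of all V segments were called lower, and 2, TRBV12-1 and TRBV12-2, in tumors, where 9.09% were called lower. Between tumor and dLN, 1 of the 4 segments had fewer clones in CD4+ tumors (45.5% of all V segments called lower), and 2 had more and 2 fewer in CD8+ tumors (31.8% called higher and 59.1% lower).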

How the data were processed

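TCRβ libraries of sorted CD4+ and CD8+ T cells from tumors and of CD44hi cells from dLNs were analysed. The authors trimmed reads with Cutadapt 3.2 (per the submitters' processing notes), filtered them with PRINSEQ and assembled clones with MiXCR under IMGT segment names. Their deposited tables give, per clone, a read count, the fraction of all reads of the file and, as other values, V, D and J end positions counted from 0. Deposited counts were before down-sampling (326582 to 4840722 reads per library), and each library was drawn once without replacement to 6 reads per sorted cell, with the cell numbers that the study lists for each library. Intervals are 95% Wilson intervals on estimated cells. The genome build used by the authors is not given in the sources used here.

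V and J counts per mouse were tested with edgeR 4.0.16 (quasi-likelihood, common dispersion, library totals, V segments at a mean clone share of 0.1% or more, 22 of 26) and Benjamini-Hochberg adjustment. Distances and lengths were tested by exact permutation. The edgeR comparison of groups by V segments, the exact permutation tests and the Benjamini-Hochberg adjustment were tested on simulated data. DESeq2 1.42.0 and limma 3.58.1 were alternatives. Neither these, nor the tests of J segments, of the difference between tissues or with the mouse as a block, were run on simulated data. The replicate numbers pair the samples because same-numbered samples come from the same mouse. Deviations of same-numbered repertoires from their group means correlated between -0.562 and 0.613 over V segments. P-values of edgeR rest on a spread over 4 mice that is pooled over segments, which are parts of the same repertoires. Exact p-values rest on the values of the segment alone. For TRBV15 clones in CD4+ against CD8+ tumors, an exact permutation test gave p = 0.0571.

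Members and lists were chosen with earlier results of these data known. The clones named were the 3 largest tumor clones and the largest dLN clone of each segment and subset. The J segments named were those with the highest and lowest called ratio, besides TRBJ2-5, which was called for TRBV15 in all 4 groups. The removal of clones common to a pair of dLNs was chosen after the data were seen. Python 3.11.15 and R 4.3.3 were used.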

Additional observations from a re-analysis of the deposited data

Results flagged for a closer look

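Among 24 groups of 4 mice (read share, clone share and mean CDR3 length of 2 segments in 4 groups), 2 held a mouse far from the others, and chance alone gives about 1 in 20 such groups. TRBV16 made up 8.83% of the reads of CD8+ tumors in mouse 7, against 2.97% to 3.49% in the other mice. The mean CDR3 length of TRBV15 in CD4+ dLNs was 13.3 residues in mouse 5, against 13.4 in each of the others.

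TRBV16 clones were shorter than clones of other V segments in every mouse in CD4+ T cells and longer in every mouse in CD8+ T cells. In tumors the difference was -0.0657 ± 0.0496 residues in CD4+ and 0.165 ± 0.0166 in CD8+ T cells (SD, n = 4), a gap of -0.231 residues. In dLNs it was -0.104 ± 0.0377 and 0.197 ± 0.0219, a gap of -0.301 residues. The gap was noticed in these values. An exact permutation test over 70 unpaired splits gave p = 0.0286 in each tissue, the smallest possible. The gap was picked because the directions were opposite in every mouse, which fixes this p, so the test adds no support.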

How the results depend on the processing

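Of 580 alternatives to 48 results, 498 were rated the same and 17 turned the direction, and the cause was not tested for any change. For V results, and for lengths and distances of 4 mice, the same meant direction and side of the threshold. For lengths and distances without 1 mouse it meant a change smaller than the SD over mice. For J results it meant a similar number of called J segments, whichever these were. Length results with the mouse as a block were counted as the same without a test. With 4 mice per group, single large clones weigh on the read shares of tumors, and with 3 mice an exact test of length cannot go below 0.10. For the 16 results on CDR3 length, a blocked exact test (16 sign changes) cannot pass the threshold, so that their calls were not tested with pairing. For J results, only the numbers of called J segments were compared with the mouse as a replicate block, and they stayed similar. Among the V results, the block changed 1 call, TRBV15 reads of tumor against dLN in CD4+ T cells (0.42). The same call was lost without the filter on rare V segments (0.44), with limma (0.42), with reads as deposited (0.43), with clones under 6 or under 2 reads left out (0.43 and 0.44), at equal depth (0.44) and in an exact permutation test of the difference in percentage points (1.37), and the values without 1 mouse lay between 0.33 and 0.59.

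By clones, the TRBV15 ratio of CD4+ to CD8+ tumors was 0.0062 with TMM, 0.014 with DESeq2, 0.12 without clones under 6 reads, 0.11 at equal depth and 0.485 percentage points in an exact permutation test, all not called, and 0.14 to 0.27 without 1 mouse. In dLNs it was -0.13 with TMM and -0.24 with DESeq2, and 0.020 to 0.094 without 1 mouse. Between tumor and dLN in CD4+ T cells, the TRBV15 ratio turned to 0.080 (TMM), 0.16 (DESeq2), 0.057 (limma) and 0.013 (equal depth), with -0.059 to 0.016 without 1 mouse, and the TRBV16 ratio to 0.0091 (TMM) and 0.088 (DESeq2), with -0.14 to -0.054 without 1 mouse. In CD8+ T cells, calls were lost for TRBV15 at equal depth (-0.057) and for TRBV16 with DESeq2 (-0.041). The difference of the ratio between tissues was called for TRBV15 with DESeq2 (0.22) and limma (0.21), with 0.087 to 0.18 without 1 mouse, and turned for TRBV16 with TMM (-0.010) and at equal depth (-0.017), with -0.028 to 0.064 without 1 mouse and -0.0027 without mouse 6.

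By reads, leaving out abundant clones, a choice by the reads themselves that took a mean of 39.6% of all reads from CD4+ tumors and 10.8% from CD4+ dLNs, gave called ratios of CD4+ to CD8+ tumors for TRBV15 (0.32), of the difference between tissues (0.45 for TRBV15 and 0.41 for TRBV16) and of CD4+ tumor to dLN for TRBV16 (0.30), and turned the TRBV16 ratio of CD4+ to CD8+ tumors (-0.22). The difference between tissues was called with limma for TRBV15 (1.83), and for TRBV16 with TMM (0.85), DESeq2 (0.91) and limma (1.11). Without 1 mouse, the TRBV15 values were 0.84 to 2.03 for CD4+ against CD8+ tumors, -0.25 to -0.16 for dLNs, -1.78 to -0.72 for CD8+ tumor against dLN and 1.06 to 2.21 for the difference between tissues, and the TRBV16 values 0.091 to 0.96 for tumors, -1.41 to -0.71 for CD8+ tumor against dLN and 0.79 to 1.60 for the difference.

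The left-right distance within minus between mice, in percentage points, was -0.298 by clones and -0.253 without abundant clones for TRBV15 in CD4+ tumors, -0.0564 and -0.261 for TRBV15 in CD8+ tumors, and -0.308 by clones for TRBV16 in CD4+ tumors. None of these values by clones was called in the exact permutation test, whereas the same comparisons were called by reads. By reads and without 1 mouse, the distance within minus between mice was -1.57 to -0.754 and -2.59 to -0.816 for TRBV15 in CD4+ and CD8+ tumors, and -1.52 to -0.198 and -3.53 to -0.0605 for TRBV16. Weighted by reads, the CDR3 length of TRBV15 differed from other V segments in CD8+ tumors by -0.340 residues, between CD4+ and CD8+ tumors by -0.273, and between tumor and dLN by -0.0772 (CD4+) and -0.0476 (CD8+). For TRBV16 the values were 0.576 in CD8+ tumors, and -0.112 (CD4+) and 0.348 (CD8+) between tumor and dLN, none of them called. The number of J segments called for TRBV16 in CD8+ tumors was 3 to 7 without 1 mouse.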
